A study of Rattus norvegicus with 27 samples.

Results

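The genes described here encode 8 voltage-gated calcium channel alpha-1 subunits, namely Cacna1a, Cacna1b, Cacna1c, Cacna1d, Cacna1e, Cacna1g, Cacna1h and Cacna1i. They were picked by their rat gene symbol from a table of 36865 gene rows, and each of the 8 symbols matched 1 row. The samples were medial prefrontal cortex (mPFC) pieces, dissected from both hemispheres of 27 adult male Wistar rats, with 1 polyA RNA library per rat. All rats were killed in a resting state straight from the home cage and form 1 group without a control group. The labels name learned helplessness as the treatment of every rat and list elevated plus-maze, light-dark and open field tests, acoustic startle and fear conditioning. The methods give male Wistar rats only the first 3 of these tests, repeated, then under stronger light, with a last open field test, and give startle and fear conditioning to rats of another strain (Long-Evans). The study asked which genes follow trait anxiety. No behavioural score of a rat is used below, and the values give the level of each subunit, its spread between rats and how the subunits varied together. Whole tissue was sequenced, so fewer cells of a type and less RNA per cell cannot be told apart.

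The alpha-1 subunit forms the pore and the voltage sensor of a calcium channel and sets the type of current it carries. Cacna1c (Cav1.2) and Cacna1d (Cav1.3) form L-type channels, which sit mainly on cell bodies and dendrites and couple activity to gene transcription. Cacna1a (Cav2.1, P/Q-type), Cacna1b (Cav2.2, N-type) and Cacna1e (Cav2.3, R-type) open at strong depolarization, and P/Q- and N-type channels trigger transmitter release at most central synapses. Cacna1g (Cav3.1), Cacna1h (Cav3.2) and Cacna1i (Cav3.3) form T-type channels, which open near the resting potential and support burst firing. L-type, P/Q-, N- and R-type channels bind a cytosolic beta subunit and an extracellular alpha2delta subunit, and T-type channels do not need them.

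Between 4907255 and 12771309 reads per library were counted on genes. The library number parted these totals. The 16 libraries numbered up to 31 held 4907255 to 8568317 reads and the 11 numbered from 32 held 9404220 to 12771309. The methods describe rats from more than 1 cohort, and no source used here says which library came from which, so the main relations are also given within these number ranges or with the difference between them regressed out. Library 3 stood apart. It had the lowest normalized count of all 27 libraries for 8 of the 8 subunits, so results are also given without it. The summed level of 6 oligodendrocyte markers in library 3 was the highest of all (59780 normalized counts, against a median of 27250 over the 27 libraries), and that of 10 excitatory neuron markers was the lowest (13570, against a median of 22440). Their part in the low subunit values was not tested.

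All 8 subunit genes were read in every library, and values are given as normalized counts, that is reads divided by the size factor of the library. Of the L-type genes, Cacna1c (gene ID 24239) had 396 ± 57.2 normalized counts (mean ± SD, n = 27), with a lowest value of 202, a median of 404 and a highest value of 478. Cacna1d (29716) had 905 ± 152, with a lowest value of 567, a median of 890 and a highest value of 1326. The low end of both was library 3, and the high end was library 12 for Cacna1c and library 51 for Cacna1d.

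Of the genes for channels that open at strong depolarization, Cacna1a (25398) had 2406 ± 325 normalized counts, running from 1742 over a median of 2366 to 2900. Cacna1b (257648) had 1901 ± 199, running from 1252 over a median of 1919 to 2247. Cacna1e (54234) behaved unlike both. It had 204 ± 134 normalized counts, with a lowest value of 32.1 in library 3, a median of 172 and a highest value of 541 in library 12, from 21 to 477 reads per library. The highest library thus held 16.9 times the lowest for Cacna1e, against 1.66 times for Cacna1a and 1.79 times for Cacna1b. Without library 3 these were 11 times for Cacna1e, 1.63 times for Cacna1a and 1.44 times for Cacna1b.

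Of the T-type genes, Cacna1g (29717) had 1356 ± 217 normalized counts, running from 913 over a median of 1331 to 2013. Cacna1h (114862) had 934 ± 181, running from 480 over a median of 944 to 1366. Cacna1i (56827) had 647 ± 158, running from 148 over a median of 688 to 837. Cacna1i spread downward, with its 2 lowest values in library 3 (148) and library 19 (310). Library 51 was highest for Cacna1a, Cacna1b, Cacna1d, Cacna1g and Cacna1h, and library 5 for Cacna1i. Transcript lengths were not used here, so the levels of different subunits are not ranked against each other. The other alpha-1 genes, Cacna1f of the retina and Cacna1s of skeletal muscle, were near the floor, with at most 18 and 13 reads in any library.

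**Figure D1:**
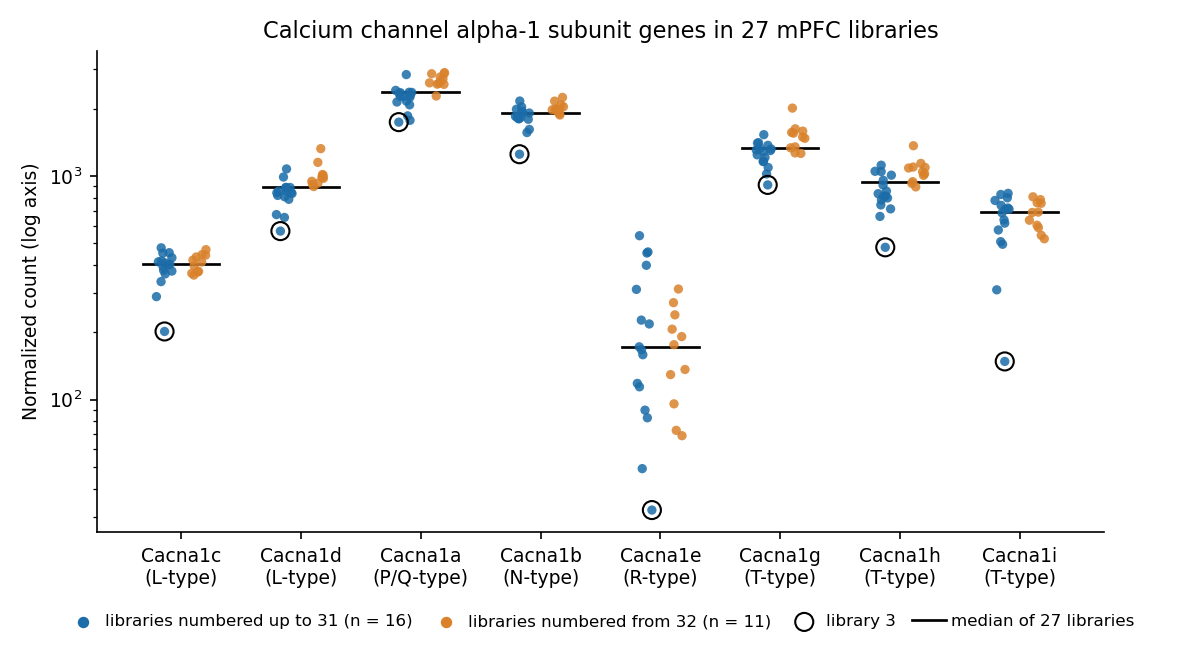
Normalized count (log axis) of each alpha-1 subunit gene in the 27 mPFC libraries, 1 point per library, blue for the 16 libraries numbered up to 31 and orange for the 11 from 32, with the median as a line. Library 3 (ringed) is the lowest point for all 8 genes, and Cacna1e spreads from 32.1 to 541 while Cacna1b stays between 1252 and 2247.

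The spread between rats was larger than counting error for each subunit. Against the spread that a Poisson distribution gives (chi-square test, Benjamini-Hochberg adjustment over 11730 genes), 8 of the 8 subunits varied more, as did 89.8% of all genes tested, so this share says nothing particular about the subunits. The size of the spread differed among them. The standard deviation (SD) of log2(normalized count + 1) was 1.00 for Cacna1e, and only 0.955% of the genes tested had a larger one. It was 0.51 for Cacna1i, where 7.26% of genes had a larger one. The other 6 subunits lay between 0.17 for Cacna1b and 0.30 for Cacna1h, beside a median of 0.19 over all genes tested. Counting error made up 1.16% of the variance of Cacna1e and 12.4% of that of Cacna1c, the highest share of the 8. Without library 3 the SD was 0.91 for Cacna1e and 0.31 for Cacna1i. Within the number ranges the SD of Cacna1e was 1.17 up to 31 and 0.74 from 32, the largest of the 8 in both.

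The subunits were then set against each other over the 27 rats with Spearman's rho, tested by 100000 permutations and adjusted over all 93804 relations of a subunit with a gene. A total of 13 of the 28 subunit pairs correlated positively and 0 negatively, beside 9.74% of all relations that correlated positively and 8.3% that correlated negatively. The median rho of the 28 pairs was 0.45, against -0.013 over all relations. The pairs fell unevenly. Of the 10 pairs among Cacna1a, Cacna1b, Cacna1d, Cacna1g and Cacna1h, 10 passed, with rho from 0.72 to 0.89 and adjusted permutation p from 0.000608 to 0.0019. This set was not fixed in advance but drawn from these pair values, so 10 of 10 passing follows from the choice. This set joins the P/Q- and N-type genes, 1 L-type gene and 2 T-type genes, so it crosses the channel families. Among the 7 pairs within a family 3 passed, and among the 21 pairs between families 10 passed.

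The strongest pair by rho was Cacna1a with Cacna1d (rho = 0.89, adjusted permutation p = 0.000608, the smallest that the permutations reached, and Pearson's r = 0.907, adjusted permutation p = 0.000276). By rho, Cacna1a with Cacna1g followed at rho = 0.86 and r = 0.88, and Cacna1a with Cacna1b at rho = 0.86 and r = 0.87, with the same adjusted p-values. By r, Cacna1c with Cacna1i (0.918) and Cacna1b with Cacna1d (0.909) lay above all of these. Without the 2 libraries farthest from the median of the first gene, r stayed between 0.73 and 0.88 over the 10 pairs. Over the libraries numbered up to 31, rho of these pairs ran from 0.62 to 0.94 and over those from 32 from 0.18 to 0.79. The lowest value from 32 was that of Cacna1d with Cacna1g (0.18, unadjusted permutation p = 0.593). Of the 28 pairs, 17 had an unadjusted p under 0.05 up to 31. There 10 passed the adjusted threshold, beside 2.23% of all relations that were positive. From 32, with 11 libraries, 9 had an unadjusted p under 0.05 and 0 passed after adjustment, as did 0 of all 93804 relations. With the difference between the ranges regressed out, 10 of the 10 pairs passed with rho from 0.68 to 0.87, and 17 of the 28 in all, beside 6.75% of all relations.

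Over the 10 pairs of this set, the SD of the log2 ratio ran from 0.10 to 0.18. This was not particular to the set. The pairs of Cacna1c or Cacna1i with its genes ran from 0.14, for Cacna1b to Cacna1c, to 0.41. The log2 ratio of Cacna1a to Cacna1b had an SD of 0.10 over the 27 rats, and its highest value was 1.38 times its lowest on a linear scale. The log2 ratio of Cacna1b to Cacna1h was the widest of the 10, with an SD of 0.18.

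The promoters of Cacna1b and Cacna1d are shown because only their windows lay wholly or nearly outside the span of the gene. Their correlation (rho = 0.84, adjusted permutation p = 0.000608) played no part in this choice. RefSeq sequences of GRCr8 were on hand for Cacna1a, Cacna1b, Cacna1c, Cacna1d and Cacna1e, each upstream of 1 annotated transcript start. For Cacna1a and Cacna1e all 250 bases, and for Cacna1c 184 of them, lie inside the span of the gene itself, and these are not printed. For Cacna1b, 7 bases inside the gene were removed. The bases upstream of the start are written 5′ to 3′ on the minus strand, with each GC box (GGGCGG, searched on both strands, overlapping matches counted) in capitals. Cacna1b lies at chr3:27944293-27944535 and Cacna1d at chr16:5527550-5527799.
Cacna1b: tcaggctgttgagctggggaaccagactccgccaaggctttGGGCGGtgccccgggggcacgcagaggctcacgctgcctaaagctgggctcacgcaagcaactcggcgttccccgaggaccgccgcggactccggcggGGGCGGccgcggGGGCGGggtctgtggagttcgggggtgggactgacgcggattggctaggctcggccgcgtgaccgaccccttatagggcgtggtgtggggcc
Cacna1d: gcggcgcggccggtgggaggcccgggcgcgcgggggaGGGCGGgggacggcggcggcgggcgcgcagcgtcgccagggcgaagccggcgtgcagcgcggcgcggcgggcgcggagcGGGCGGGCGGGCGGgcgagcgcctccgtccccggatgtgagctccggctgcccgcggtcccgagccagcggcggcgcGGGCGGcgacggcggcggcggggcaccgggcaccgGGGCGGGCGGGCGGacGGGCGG
The Cacna1d window held 88.8% G and C and 9 GC boxes, several of them overlapping, and 0.0956% of all 33469 promoter windows held as many. The Cacna1b window held 71.6% G and C and 3 GC boxes, and 7.41% of all windows of 250 bases held as many. At least 1 GC box stood in 30.5% of all windows, and the letters TATAAA, found in 12.9% of all windows on either strand, were in neither. The median of all windows was 51.2% G and C. A match of letters is a description and says nothing of the use of a site or of these starts in the tissue.

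**Figure D2:**
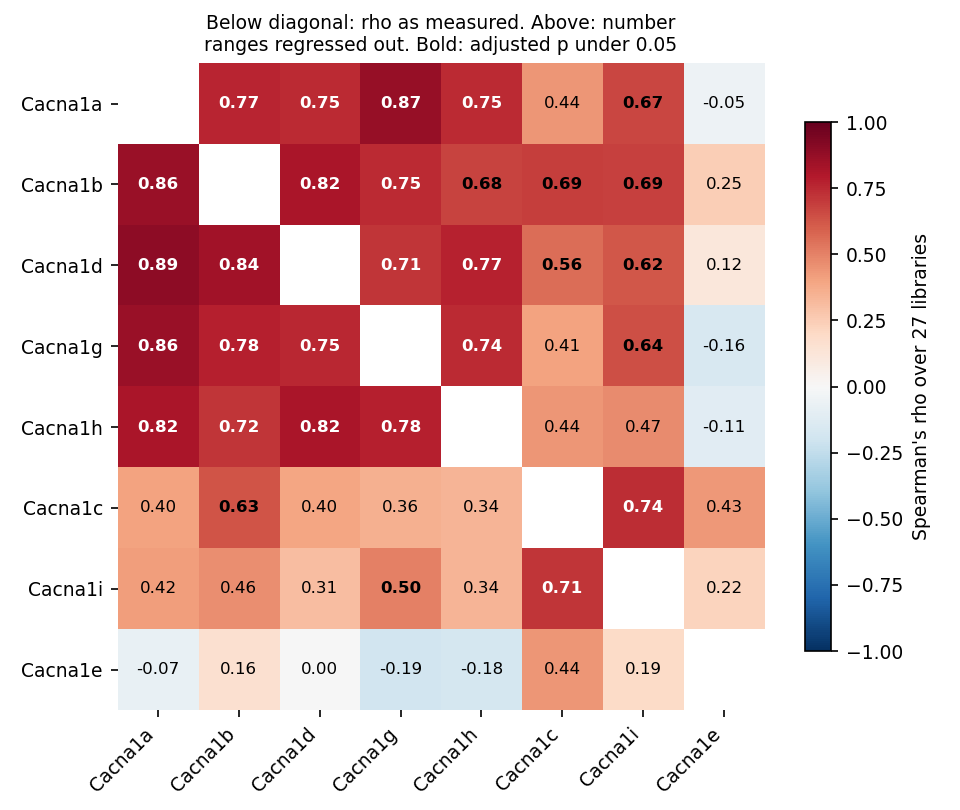
Spearman's rho of each subunit pair over the 27 libraries, as measured below the diagonal and with the difference between the number ranges regressed out above it, bold where the adjusted permutation p is under 0.05. The block of Cacna1a, Cacna1b, Cacna1d, Cacna1g and Cacna1h is bold throughout (0.68 to 0.89), and the row and column of Cacna1e hold no bold value.

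Cacna1c and Cacna1i made up the other close pair. Their rho was 0.71 (adjusted permutation p = 0.00153) and their r was 0.92 (adjusted permutation p = 0.000276), and r was 0.64 without libraries 3 and 19. The values within the ranges were 0.83 up to 31 and 0.49 from 32 (unadjusted permutation p = 0.129). Of the 10 pairs of Cacna1c or Cacna1i with the set of 5, Cacna1b with Cacna1c (rho = 0.63, adjusted permutation p = 0.00677, and rho = 0.69 with the ranges regressed out) and Cacna1g with Cacna1i (rho = 0.50, adjusted permutation p = 0.0453) passed. The second of these lay at the threshold. Its rho ran from 0.44 to 0.61 when each library was left out, and it did not pass in 15 of these 27 fits (rho = 0.44, adjusted permutation p = 0.106, without library 3), while with the ranges regressed out it did (rho = 0.64, adjusted permutation p = 0.0067). With the ranges regressed out, 6 of these 10 pairs passed.

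Cacna1e stood apart from the other subunits in these tests. Its rho with the other 7 ran from -0.19 with Cacna1g to 0.44 with Cacna1c, and 0 of 7 passed by Spearman's test, with 1 of 7 at an unadjusted p under 0.05. By Pearson's r, 2 of 7 passed, Cacna1c (r = 0.64, adjusted permutation p = 0.00226) and Cacna1i (r = 0.52, adjusted permutation p = 0.0196). Without the libraries 3 and 19 these r were 0.35 and -0.0055. A low rho at 27 rats does not show that the genes vary independently. Over the 28 pairs, 23 passed by r, beside 16.5% of all relations. Without library 3, 15 passed by r and 12 by rho, beside 10.5% and 8.22% of all relations that were positive.

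**Figure D3:**
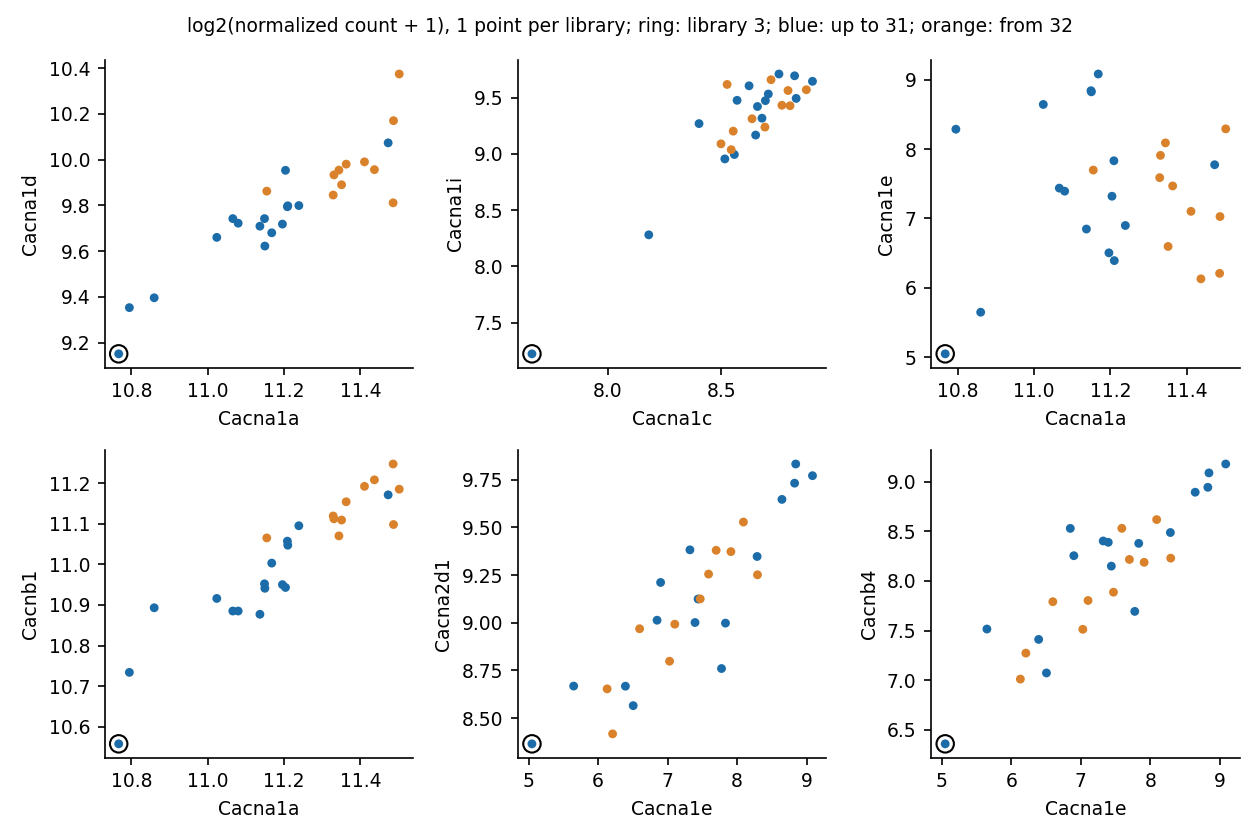
Values of 6 gene pairs as log2(normalized count + 1), 1 point per library, blue up to 31, orange from 32, with library 3 ringed. Cacna1a rises with Cacna1d and with the beta subunit gene Cacnb1, Cacna1e rises with Cacna2d1 and Cacnb4 across its whole range, and Cacna1a and Cacna1e form a cloud (rho = -0.072).

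Since the number ranges differ in depth, the level of each subunit was compared between them with edgeR's quasi-likelihood test, adjusted over 11716 genes. Of the 8 subunits 4 were higher in the libraries from 32, beside 8.85% of all genes that were higher and 18% that differed either way. Cacna1a had 2222 ± 271 normalized counts up to 31 (n = 16) and 2673 ± 180 from 32 (n = 11), a log2 difference of 0.27 ± 0.06 (SE, adjusted p = 0.00123). The ranges overlapped, since 8 of the 11 values from 32 lay below the highest value up to 31. Cacna1d differed by 0.29 ± 0.07 (adjusted p = 0.00558), Cacna1g by 0.26 ± 0.07 (adjusted p = 0.00904) and Cacna1h by 0.31 ± 0.09 (adjusted p = 0.0142). The ranges of these 3 overlapped too, and for Cacna1d 2 of the 16 values up to 31 lay above the lowest value from 32.

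The remaining 4 did not pass. Cacna1b lay at the threshold with a log2 difference of 0.15 ± 0.05 (adjusted p = 0.0561), and it passed without library 3 (0.12, adjusted p = 0.0353) and without library 12, 17, 26 or 39. Cacna1c differed by 0.08 ± 0.08 (adjusted p = 0.57), Cacna1i by 0.09 ± 0.15 (adjusted p = 0.751) and Cacna1e by -0.38 ± 0.33 (adjusted p = 0.471). Without library 3 the first 2 were 0.039 and 0.022, and without library 12 that of Cacna1e was -0.24, and none passed. The standard error of the Cacna1e difference was larger than any of the 4 called differences. The summed markers of the cell types overlapped between the ranges. For the 10 excitatory neuron markers the sum ran from 13570 to 25080 normalized counts up to 31 and from 19240 to 24690 from 32, and 1 of 10 was higher from 32 (Tbr1, a transcription factor of deep-layer neurons). For the 6 oligodendrocyte markers it ran from 17000 to 59780 and from 16560 to 34620, with 0 of 6 called and 0 at an unadjusted p under 0.05. Of 7 interneuron markers tested 1 was higher, the vesicular GABA transporter Slc32a1. Sst was at 0 in every library and was not tested, and such a row does not show that the mRNA was absent. The total count of a library had rho = 0.69 with Cacna1a over all 27 libraries, 0.51 up to 31 and -0.37 from 32, and for Cacna1d these were 0.67, 0.46 and -0.59. The part of cell makeup and depth in the differences was not tested.

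**Figure D4:**
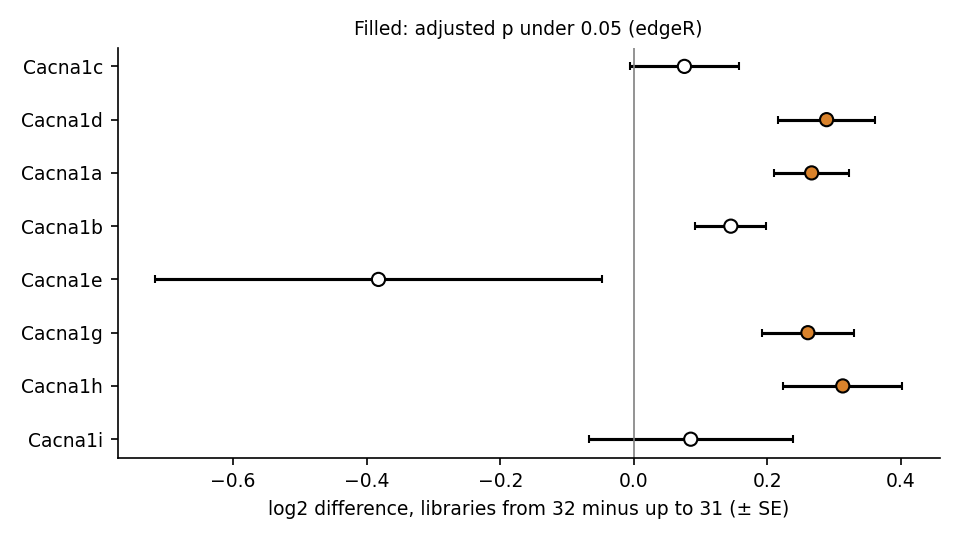
Log2 difference of each subunit between the libraries numbered from 32 and up to 31, with bars for the standard error, filled where edgeR's adjusted p is under 0.05. Cacna1a, Cacna1d, Cacna1g and Cacna1h lie between 0.26 and 0.31, and the bar of Cacna1e is the widest.

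The other parts of the channel complex came from a list of 4 alpha2delta, 4 beta, 8 gamma and 12 regulator genes, of which 3, 4, 6 and 10 had a mean count of at least 10 and were tested. Of the relations with an alpha-1 gene, 6 of 24 were positive for the alpha2delta genes, 10 of 32 for the beta genes and 20 of 48 for the gamma genes, together 36 of 104 (34.6%), and 0 were negative. The median rho of the 104 was 0.32. With the ranges regressed out, 21 were positive, and without library 3, 30 were positive and 2 negative. Of the 72 relations of the 9 regulators reported, 5 were positive and 6 negative, and the median rho was -0.10. The shares of positive relations over all genes differed by subunit and were 12.7% for Cacna1a, 10.1% for Cacna1b, 7.38% for Cacna1c, 11.6% for Cacna1d, 7.82% for Cacna1e, 10.6% for Cacna1g, 10.5% for Cacna1h and 7.38% for Cacna1i.

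Beta subunits bind the alpha-1 subunit inside the cell and carry it to the surface. Cacnb1 (2083 ± 215 normalized counts, lowest 1506, median 2130, highest 2430) correlated with each of the 5 genes of the set, most closely with Cacna1a (rho = 0.93, adjusted permutation p = 0.000608, r = 0.92, adjusted permutation p = 0.000276, and r = 0.89 without the 2 farthest libraries). That relation had rho = 0.91 up to 31, 0.56 from 32 and 0.79 with the ranges regressed out (adjusted permutation p = 0.00123). Cacnb1 with Cacna1b and with Cacna1d fell away from 32, to rho = 0.036 and 0.073, and with the ranges regressed out the relation with Cacna1d did not pass (rho = 0.50, adjusted permutation p = 0.061) while the other 4 did. Cacnb3 (2833 ± 247) correlated with Cacna1a, Cacna1b, Cacna1d and Cacna1g, most with Cacna1a (rho = 0.77). None of the 4 passed with the ranges regressed out, with rho = 0.53 for Cacna1a (adjusted permutation p = 0.0509) and from 0.18 to 0.37 for the other 3, while Cacna1i then did (rho = 0.60, adjusted permutation p = 0.0179). Both Cacnb1 and Cacnb3 were higher from 32, by log2 differences of 0.20 ± 0.04 (edgeR, adjusted p = 0.00144) and 0.18 ± 0.04 (adjusted p = 0.000878). Cacnb2 (569 ± 40.4) passed with no subunit, and its rho ran from 0.04 to 0.36.

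Cacnb4 (295 ± 128, lowest 81.1, median 297, highest 579) went another way. It correlated with Cacna1e (rho = 0.81, adjusted permutation p = 0.000861, r = 0.88, adjusted permutation p = 0.000276, and r = 0.85 without the 2 farthest libraries) and positively with no other subunit. Without library 3 it was also negative with Cacna1g (rho = -0.56, adjusted permutation p = 0.0316) and Cacna1h (rho = -0.55, adjusted permutation p = 0.034), and with the ranges regressed out these were at rho = -0.24 and -0.28 and did not pass. The relation with Cacna1e had rho = 0.84 up to 31 and 0.91 from 32. Cacna2d1, an alpha2delta subunit that binds gabapentin (571 ± 163, lowest 329, median 557, highest 910), likewise passed with Cacna1e only (rho = 0.86, adjusted permutation p = 0.000608, r = 0.89, adjusted permutation p = 0.000276, and r = 0.88 without the 2 farthest). Within the ranges its rho was 0.84 and 0.88. The libraries with little Cacna1e mRNA thus also held little Cacnb4 and Cacna2d1 mRNA, in both number ranges.

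Cacna2d2 (209 ± 52.4, lowest 73.4, median 209, highest 369), a further alpha2delta gene, correlated with Cacna1a, Cacna1b, Cacna1c, Cacna1g and Cacna1i, most with Cacna1c (rho = 0.73, adjusted permutation p = 0.00153, r = 0.86, adjusted permutation p = 0.000276, and r = 0.58 without the 2 farthest). The values within the ranges were 0.79 and 0.71. The relations with Cacna1a and Cacna1g did not pass without library 3 (adjusted permutation p = 0.0822 and 0.098). Cacna2d3 (799 ± 80.3) passed with no subunit (rho from -0.073 to 0.37). Cacna2d4, Cacng1 and Cacng6 had at most 4, 1 and 7 reads in any library and were not tested.

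The gamma list holds proteins that mostly serve as auxiliary subunits of AMPA receptors. Of its 48 relations 20 were positive, and all but that of Cacng4 with Cacna1i were with genes of the set of 5. The largest was Cacng8 with Cacna1a (rho = 0.86, adjusted permutation p = 0.000608, r = 0.83, adjusted permutation p = 0.000276), at 0.62 up to 31 and 0.65 from 32. With the ranges regressed out 9 of the 48 were positive. Of the 6 gamma genes tested 4 were higher from 32, Cacng8 by the largest log2 difference (0.44 ± 0.06).

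Among the regulators, Rimbp2, a scaffold that ties calcium channels to the presynaptic release site (3502 ± 390, lowest 2378, median 3506, highest 4252), correlated with each of the 5 genes of the set, most with Cacna1a (rho = 0.91, adjusted permutation p = 0.000608, r = 0.91, adjusted permutation p = 0.000276, and r = 0.88 without the 2 farthest). With the ranges regressed out the 5 relations had rho from 0.68 to 0.81, and all 5 passed. Calm2, which encodes calmodulin, a protein that gives channels their feedback by calcium, ran the opposite way and was negative with each of the 5 genes. The farthest of these from 0 was that with Cacna1d (rho = -0.84, adjusted permutation p = 0.000608, r = -0.84, adjusted permutation p = 0.000276), at -0.62 up to 31 and -0.71 from 32. Calm2 with the ranges regressed out passed as negative with Cacna1b, Cacna1d and Cacna1h, and also with Cacna1c (rho = -0.65, adjusted permutation p = 0.0115) and Cacna1i (rho = -0.56, adjusted permutation p = 0.0292), and not with Cacna1a (rho = -0.52, adjusted permutation p = 0.0592) or Cacna1g (rho = -0.48, adjusted permutation p = 0.0806). Calm3, which encodes the same protein, passed with Cacna1d only (rho = -0.53, adjusted permutation p = 0.0335), and that relation was at rho = -0.0067 with the ranges regressed out. Of these regulators, Rimbp2 was higher from 32 (edgeR, log2 difference 0.17 ± 0.05, adjusted p = 0.0279), and Calm2 (-0.27 ± 0.05, adjusted p = 0.000757) and Calm3 (-0.17 ± 0.05, adjusted p = 0.0107) were lower. Stac and Rims1 were at 0 in every library and were not tested, which does not show that their mRNA was absent.

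**Figure D5:**
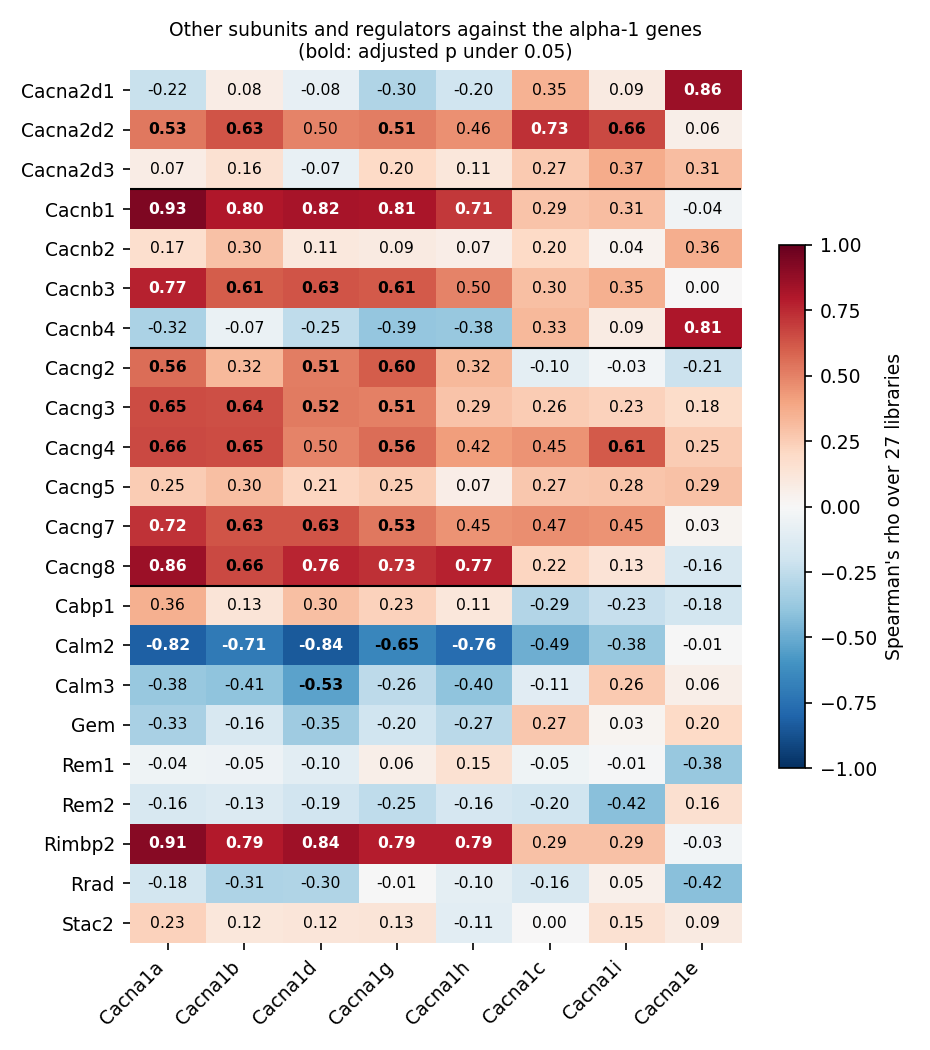
Spearman's rho over the 27 libraries of auxiliary subunit and regulator genes (rows, lines part the alpha2delta, beta, gamma and regulator genes) with each alpha-1 gene (columns), bold where the adjusted permutation p is under 0.05. Cacnb1, Cacng8 and Rimbp2 are positive and Calm2 is negative with the left 5 columns, and Cacna2d1 and Cacnb4 are bold in the Cacna1e column only.

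The cell type markers were taken in the same way. Of 424 relations of 53 marker genes with a subunit, 22 were positive (5.19%) and 8 negative (1.89%). Both shares lay below those over all relations (9.74% positive and 8.3% negative). Without library 3, 16 were positive and 8 negative. With the ranges regressed out, 14 were positive and 16 negative, beside 6.75% of all relations that were then positive. The excitatory neuron markers gave 9 positive relations of 80 (11.2%), near the share over all relations. Of these 9, Cux2, an upper-layer transcription factor, made 6, with Cacna1i (rho = 0.72, adjusted permutation p = 0.00153, r = 0.89, adjusted permutation p = 0.000276), Cacna1b, Cacna1g, Cacna1a, Cacna1c and Cacna1d (the last not without library 3, adjusted permutation p = 0.0897). Camk2a, a kinase of excitatory neurons, correlated with Cacna1i (rho = 0.75, adjusted permutation p = 0.000608, r = 0.84, adjusted permutation p = 0.000276) and Cacna1c (rho = 0.59, adjusted permutation p = 0.0153). Slc17a6, a glutamate transporter gene of the same list, had rho = -0.45 with Cacna1a and -0.48 with Cacna1g, and both passed as negative without library 3 (rho = -0.57, adjusted permutation p = 0.0271, and rho = -0.60, adjusted permutation p = 0.015). Neurod6, a further member, was below 0 with 7 of the 8 subunits and passed with none (lowest rho -0.42). The 6 relations of Cux2 and both of Camk2a also passed with the ranges regressed out. The summed excitatory markers had rho = 0.64 with Cacna1i, 0.49 with Cacna1c and 0.23 with Cacna1e.

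The interneuron markers gave 11 positive relations of 56 (19.6%, beside 9.74% of all relations), and 3 with the ranges regressed out. Cacna1e passed with 3 of 7 interneuron markers, the GABA-synthesizing enzymes Gad2 (rho = 0.70, adjusted permutation p = 0.00224, r = 0.79, adjusted permutation p = 0.000276) and Gad1 (rho = 0.50, adjusted permutation p = 0.0469) and Adarb2 (rho = 0.68, adjusted permutation p = 0.00315). Gad1 did not pass without library 3 (rho = 0.45, adjusted permutation p = 0.104). Cacna1e also passed with Rorb, a transcription factor of the excitatory neuron list (rho = 0.64, adjusted permutation p = 0.00573). The other 4 interneuron markers tested did not pass with it, and the lowest rho was that of Lhx6 (-0.27). The endothelial marker Cldn5 was negative with Cacna1e (rho = -0.56, adjusted permutation p = 0.0234). That call was lost without library 3 (rho = -0.51, adjusted permutation p = 0.0558). The relations of Cacna1e with Gad2, Adarb2, Rorb and Cldn5 passed with the ranges regressed out and that with Gad1 did not (rho = 0.52, adjusted permutation p = 0.0643).

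Slc32a1 correlated with Cacna1a (rho = 0.71, adjusted permutation p = 0.00173), Cacna1b, Cacna1d and Cacna1g, and with the ranges regressed out its rho with Cacna1a was 0.37 (adjusted permutation p = 0.208). Lhx6, a transcription factor of interneurons, correlated with Cacna1a, Cacna1d, Cacna1g and Cacna1h (rho from 0.50 to 0.58). With the ranges regressed out none of these passed, though rho was still from 0.46 to 0.50 (adjusted permutation p from 0.0628 to 0.101). The other 5 interneuron markers had rho from -0.19 to -0.095 with Cacna1a, and the median over the 7 was -0.16. The astrocyte markers gave 6 negative relations of 40 (15%, beside 8.3% of all relations), all with Aqp4 or Gja1. The farthest from 0 was the gap junction gene Gja1 with Cacna1g (rho = -0.65, adjusted permutation p = 0.00593, r = -0.64, adjusted permutation p = 0.00348). Of the 6, 2 passed with the ranges regressed out, Gja1 and Aqp4 with Cacna1g. The oligodendrocyte markers gave 0 of 48 with 1 at an unadjusted p under 0.05, the striatal neuron markers 0 of 48 with 3, the precursor markers 0 of 32 with 2 and the meningeal fibroblast markers 0 of 40 with 2. With the ranges regressed out, 8 of the 48 oligodendrocyte relations were negative, 4 of them with Cacna1a, and 3 of the 48 striatal relations were negative, those of Ppp1r1b with Cacna1a (rho = -0.66), Cacna1b (-0.55) and Cacna1g (-0.67). The microglia markers gave Cx3cr1 with Cacna1i (rho = 0.65, adjusted permutation p = 0.00553) and Aif1 with Cacna1b (rho = -0.57, adjusted permutation p = 0.0202), and of the endothelial and mural markers Pdgfrb also passed, with Cacna1h (rho = 0.58, adjusted permutation p = 0.0175). The relation of Pdgfrb did not pass with the ranges regressed out (rho = 0.49, adjusted permutation p = 0.0758) and both microglia relations did. Immediate early genes, which respond to recent activity, gave 4 positive relations of 48 (8.33%, beside 9.74% of all relations). Egr1 made 3 of them, with Cacna1a, Cacna1b and Cacna1g. None of the 3 passed with the ranges regressed out (adjusted permutation p = 0.113, 0.184 and 0.159), those with Cacna1b and Cacna1g did not pass without library 3 either, and 1 of the 48 passed with the ranges regressed out, Fosb with Cacna1g. The part of cell makeup in the relations between subunits was not tested.

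The genes whose levels were most like each subunit, out of 11729, were picked by rho and are given without a test. Cacna1e was closest to Kcnma1, the pore of the large-conductance calcium-activated potassium channel (rho = 0.95, and 0.95 in each number range), to Stxbp5l, a syntaxin-binding protein (0.95), and to Grin2a, an NMDA receptor subunit (0.95). Grin2a had 70.2 ± 47.2 normalized counts and an SD of log2 values of 0.88, near that of Cacna1e, while Kcnma1 varied less (298 ± 96.2, SD of log2 values 0.47).

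Cacna1a was closest to MAST1 (rho = 0.94), Shisa7 (0.94) and Unc5a (0.94), Cacna1b to Shisa7 (0.89), the potassium-chloride transporter Slc12a5 (0.88) and Ppp1r13b (0.87), and Cacna1d to Zfp142 (0.92), Celf5 (0.91) and Shisa7 (0.91). Shisa7, an auxiliary protein of GABA-A receptors, was thus among the 3 closest genes of all 3. Celf5, an RNA-binding protein, was shared by Cacna1d and Cacna1h (0.89), which was closest to Cog1 (0.92), with Leng8 next after Celf5 (0.89). Cacna1g was closest to Mast3 (0.88), the axon initial segment spectrin Sptbn4 (0.88) and Cabin1 (0.87). Cacna1i was closest to Gramd1b (0.89), Kif21b (0.89) and Pde4dip (0.88), and Cacna1c to the calcium pump Atp2b3 (0.85), Gramd1b (0.84) and Kif13b (0.82). Gramd1b was the gene common to Cacna1c and Cacna1i.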

How the data were processed

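Libraries of mPFC RNA from 27 rats were read from one end on a NextSeq500. The values deposited by the authors are raw counts of reads per gene and library, with no normalization. The submitters' processing notes name Trimmomatic, STAR and HTSeq, and their versions, the genome build, the annotation and the use of strand are not given in the sources used here. The paper and the labels differ on the slice and on the library kit. Some genes appear at several loci in 436 rows, so close copies and overlapping genes are uncertain.

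Gene IDs were named from the RefSeq list of GRCr8. Counts were divided by median-of-ratios size factors (DESeq2 1.42.0), and logs were taken as log2(normalized count + 1), so differences of low genes are understated. A gene was tested from a mean count of 10. Spread was tested against a Poisson distribution, number ranges with edgeR 4.0.16 (TMM, filterByExpr) and relations by Spearman's rho with 100000 two-sided permutations, each with Benjamini-Hochberg adjustment over all genes or relations and a threshold of 0.05. The libraries are separate rats. Reads carry no molecular identifiers, so the dispersion test covers counting error only. Models were tested on simulated data. R 4.3.3, Python 3.11.15, scipy 1.17.1 and matplotlib 3.10.9 were used.

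The 8 genes and all lists were chosen with earlier results of these data known. The genes named are the 8 subunits, the listed auxiliary and regulator genes past the threshold with most subunits or highest and lowest in their group, Cacnb1 to Cacnb4 and Cacna2d1 to Cacna2d3, the 3 genes closest to each subunit, and the marker of each list farthest from 0. Other genes with values, such as Adarb2, Gad1, Cldn5, Slc32a1, Tbr1 and Egr1, were chosen after their values were seen. Levels per length, shares of each subunit and protein comparisons were planned and not run, because transcript lengths and protein sequences were not used here. Results of 1 listed regulator gene are not reported here.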

Additional observations from a re-analysis of the deposited data

How the results depend on the processing

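The number of subunits that varied beyond counting stayed at 8 of 8 under the other scalings (TMM, total counts, size factors from the tested genes alone), without the count filter, within each number range, and without libraries 12 and 20 or library 3. The number of subunits that differed between the number ranges stayed at 4 with DESeq2's Wald test, DESeq2 size factors in edgeR, no filter, and without libraries 12 and 20, and it ran from 4 to 5 when each library was left out. Of the 28 subunit pairs, 13 passed in the fit reported and 12 to 13 with TMM, total counts, a pseudocount of 0.1, a mean count minimum of 50, and without libraries 12 and 20 or library 3. Leaving out each library gave 12 to 15. With Pearson's r 23 pairs passed (23 also with a pseudocount of 0.1 or with the number ranges regressed out), 17 passed with the ranges regressed out by rho, 10 within libraries up to 31 and 0 within those from 32, where only 11 libraries remain and 0 of 93804 relations passed. Leaving out library 3, Pearson's r with other settings, and each library in turn for the pairs (20000 permutations) were chosen after seeing the data. No result changed sign past the threshold. No paired analysis was possible because all libraries form 1 group. Depth limits Cacna1c most, where counting error makes up 12.4% of the variance.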
